A study of Mus musculus with 9 samples.

Results

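The gene set described here comprises 50 genes of the cell cycle and DNA replication, taken by gene name. They came from a table of 26770 rows in which each of the 50 occurred once. Of these rows 4735 were unannotated loci, which are counted as genes below. The rule was the list of names, chosen with earlier results of these data known. By role, the set held 8 cyclins, 4 cyclin-dependent kinases (CDKs), 2 CDK inhibitors, 4 transcription factors, 11 genes of origin licensing and firing, 7 genes of DNA synthesis and nucleotide supply, and 14 genes of mitosis and proliferation. RNA sequencing covered 9 libraries from monocytes of the mouse spleen, 3 in each of 3 groups, and all cells were of WT genotype. The first group was primed with low-dose LPS (lipopolysaccharide, a component of the outer membrane of Gram-negative bacteria that activates Toll-like receptor 4) and then given 20 µM octanal, an aldehyde. The sample labels give 18, 19 and 20 hours of octanal for its replicates 1, 2 and 3, where the series text gives 18 hours for the group, so the hours of single replicates were not used. The second group received LPS at 40 ng/ml for 5 hours. For the first group the labels give no dose or hours of LPS. The third was untreated and received DMSO, at a dilution of 1 in 1000, 1001 and 1002 in the labels of its replicates 1, 2 and 3. The labels state neither the total time in culture of the LPS and untreated cells nor the solvent of the LPS cells. Octanal and time in culture therefore cannot be told apart. In LPS against untreated cells, neither can LPS, time in culture and solvent.

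A dividing cell passes through a fixed order of steps. D-type and E-type cyclins with their CDKs release E2F transcription factors, which drive the genes of DNA synthesis. The Mcm2 to Mcm7 proteins are loaded on replication origins as a ring that later unwinds the DNA, and the genes of mitosis are switched on last, largely through the MuvB complex with B-Myb and FoxM1. Monocytes leave the bone marrow as largely non-dividing cells, while their progenitors, and precursors of other blood cells in the mouse spleen, divide.

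Total counts were 29594291 to 38388421 per library, and every gene of the set passed the filter on low counts. The lowest count of any of them in a library was 26, for Cenpf in LPS replicate 3. Values per library are CPM, read counts scaled to the depth of each library, and a gene was called where edgeR's quasi-likelihood test gave a Benjamini-Hochberg adjusted p under 0.05 over all 15447 genes tested. Mitochondrial transcripts took 2.31% to 3.10% of the counts in LPS with octanal, 4.12% to 7.66% in LPS and 2.20% to 3.99% in untreated libraries, and the part of this difference in the results was not tested. The untreated libraries stood apart from each other on these genes. Untreated replicate 1 was the highest of its group for 43 of the 50 genes and for all 14 mitosis genes, against 36.5% of all genes tested. LPS with octanal replicate 3 was the highest of its group for 31 of the 50 and for 13 of the 14 mitosis genes, against 28.9% of all genes. The median SD between replicates on a log2 scale was 0.36 in LPS with octanal, 0.20 in LPS and 0.52 in untreated cells for the 50 genes, against 0.20, 0.15 and 0.27 for all genes. In bulk RNA, fewer cells of a type and less RNA per cell cannot be told apart.

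The FPKM scale, which divides by gene length, allows levels to be compared between genes. In LPS with octanal cells the highest mean FPKM of the set were those of Pcna at 84.9 and Ccnd3 at 61.5 FPKM, and Top2a was at 6.90 and Cenpf at 0.563 FPKM. In LPS cells the leading genes were Pcna at 95.1, Cdkn1b at 85.3 and Ccnd3 at 80.3 FPKM, while Top2a was at 2.58 and Cenpf at 0.0990 FPKM. In untreated cells Ccnd3 at 92.1, Pcna at 91.8 and Cdk4 at 58.6 FPKM led. The mitosis genes lay below these there, with the highest, Top2a, at 22.2 FPKM and the lowest, Cenpf, at 2.46 FPKM.

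LPS against untreated cells asks how these genes differed after a 5-hour exposure, from which time in culture and solvent cannot be told apart. Mitosis genes fell as a group, and so did the cyclins and the CDK of the G2 and M phases, whereas the Mcm2 to Mcm7 genes were not called. Of the 50 genes, 27 were lower in LPS cells and 1, Cdkn1b, was higher, where 17.6% of all genes tested were called lower and 15.2% higher. Their median log2 fold change was -0.97, beside 0.01 for all genes tested. Of the 27, 17 were more than 4-fold lower, which 4.69% of all genes were. LPS and untreated libraries did not overlap for 30 genes that were lower in LPS and for 2 that were higher, beside 24.8% and 26.7% of all genes tested.

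All 14 mitosis genes were called lower in LPS cells, at a median log2 fold change of -2.58, and for all 14 the groups did not overlap. Cenpf, a kinetochore protein made in the G2 phase, had 1.52, 1.19 and 0.719 CPM in the LPS libraries, against 41.99, 16.3 and 31.2 CPM in the untreated ones. This was the largest log2 fold change of the set, -4.70 (SE 0.55, adjusted p = 0.00105). Top2a, the topoisomerase that untangles sister DNA strands, had 13.99, 17.6 and 9.71 CPM in LPS cells, against 189, 70.7 and 125 CPM in untreated cells. Its mean in LPS cells was 10.7% of that in untreated cells, and the log2 fold change was -3.22 (SE 0.43, adjusted p = 0.00153). Mki67, the proliferation antigen of histology, had 48.2, 61.8 and 59.5 CPM in LPS cells, against 299.7, 129 and 225 CPM in untreated cells. The untreated libraries differed by more than the LPS libraries did, and all 3 lay above them, and the log2 fold change was -1.95 (SE 0.35, adjusted p = 0.0051).

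The genes of spindle motors and of their regulator Tpx2 all fell. Kif11, the kinesin that separates the spindle poles, had 4.37, 6.55 and 3.57 CPM in LPS cells, against 56.5, 24.9 and 40.8 CPM in untreated cells (log2 fold change -3.08, SE 0.42, adjusted p = 0.00177). Tpx2, which nucleates spindle microtubules and activates Aurora A, had 4.71, 4.98 and 5.12 CPM in LPS cells, against 54.8, 22.3 and 39.4 CPM in untreated cells (log2 fold change -2.98, SE 0.41, adjusted p = 0.00177). Cenpe, a kinetochore motor, had 2.88, 4.23 and 2.71 CPM in LPS cells, against 34.2, 12.6 and 23.98 CPM in untreated cells (log2 fold change -2.85, SE 0.47, adjusted p = 0.00341). For each of these 3 genes the LPS libraries lay within a narrow band far below the lowest untreated library, replicate 2. Kif20a, a kinesin of the late spindle, fell by 2.55 on the log2 scale to 6.07, 4.48 and 4.12 CPM in LPS cells, against 41.8, 16.0 and 28.0 CPM in untreated cells (SE 0.42, adjusted p = 0.00358). Its exons share bases with those of Cdc23, and the use of strand in the counting is not given in the sources used here, so part of these reads may belong to Cdc23.

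The mitotic kinases fell with the spindle genes. Aurkb, the kinase of the chromosomal passenger complex, had 2.88, 2.35 and 1.85 CPM in LPS cells, against 26.7, 7.30 and 16.3 CPM in untreated cells (log2 fold change -2.83, SE 0.47, adjusted p = 0.00391). Birc5, survivin, a partner of Aurora B in that complex, had 3.32, 3.91 and 2.82 CPM in LPS cells, against 31.3, 11.7 and 18.2 CPM in untreated cells (log2 fold change -2.60, SE 0.43, adjusted p = 0.00358). Plk1, which triggers mitotic entry, had 6.12, 4.63 and 4.62 CPM in LPS cells, against 34.3, 16.7 and 23.1 CPM in untreated cells (log2 fold change -2.27, SE 0.36, adjusted p = 0.00321). The groups were apart for all 3, with untreated replicate 2 again nearest to the LPS libraries. Aurka, the kinase of the spindle poles, had 3.52, 5.04 and 4.45 CPM in LPS cells, against 19.0, 11.3 and 13.5 CPM in untreated cells (log2 fold change -1.75, SE 0.30, adjusted p = 0.00427).

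The spindle checkpoint kinases also fell, and the gene for the activator of the anaphase-promoting complex, which ends mitosis, had the smallest fall of the 14. Bub1 had 5.25, 4.196 and 3.73 CPM in LPS cells, against 25.1, 12.6 and 21.7 CPM in untreated cells (log2 fold change -2.17, SE 0.42, adjusted p = 0.00698). Bub1b, its partner in the checkpoint, had 5.25, 5.14 and 3.15 CPM in LPS cells, against 34.9, 14.6 and 22.4 CPM in untreated cells (log2 fold change -2.41, SE 0.43, adjusted p = 0.00479). Cdc20, that activator, had 10.98, 10.3 and 7.94 CPM in LPS cells, against 34.5, 17.6 and 25.9 CPM in untreated cells (log2 fold change -1.42, SE 0.27, adjusted p = 0.00592). Even for Cdc20 the highest LPS library lay below the lowest untreated one, and this gene shares exonic bases with Elovl1.

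**Figure D1:**
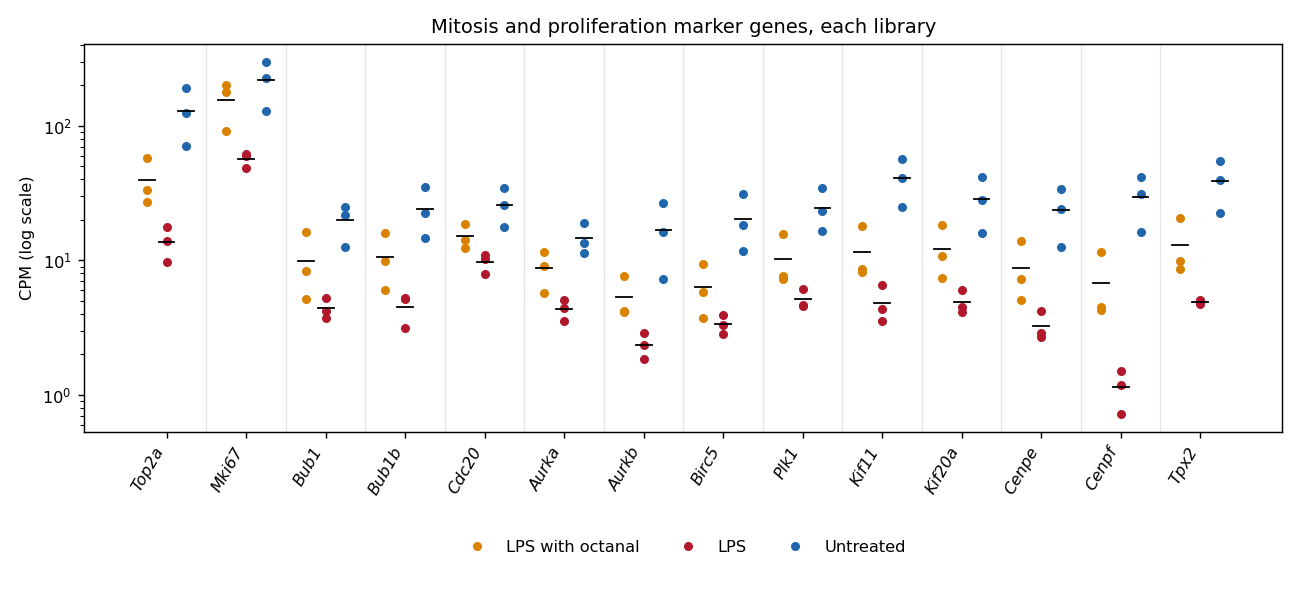
CPM (log scale) of the 14 mitosis and proliferation genes in each library of the 3 groups; points are libraries and short bars are group means. For Top2a the LPS libraries lie at 9.71 to 17.6 CPM, below both other groups, and the untreated libraries at 70.7 to 189 CPM.

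Among the cyclins, those of the S, G2 and M phases fell and those of G1 were not called. Ccna2, cyclin A, which acts in S and G2, had 5.07, 4.92 and 3.51 CPM in LPS cells, against 67.8, 25.6 and 43.8 CPM in untreated cells (log2 fold change -3.35, SE 0.46, adjusted p = 0.00178). Ccnb1 and Ccnb2 code for the mitotic cyclins. Ccnb1 had 6.74, 5.92 and 5.34 CPM in LPS cells, against 47.4, 22.5 and 37.2 CPM in untreated cells (log2 fold change -2.57, SE 0.39, adjusted p = 0.00244). Ccnb2 had 6.15, 5.32 and 5.09 CPM in LPS cells, against 41.8, 20.9 and 34.6 CPM in untreated cells (log2 fold change -2.55, SE 0.33, adjusted p = 0.00146). The groups did not overlap for these 3 genes. Ccna2 shares exonic bases with Exosc9, and Ccnb1 and Ccnb2 have annotated pseudogene copies that may share reads with them. The other 5 cyclins had log2 fold changes of -0.87 for Ccne2, -0.33 for Ccnd1, -0.29 for Ccnd3, 0.29 for Ccne1 and 0.77 for Ccnd2. Of these, Ccne2 was lower in every LPS library and missed the threshold (adjusted p = 0.055), and Ccnd2, a cyclin D that binds Cdk4 and Cdk6, was higher in every LPS library (adjusted p = 0.12).

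Of the 4 CDKs, Cdk1 and Cdk2 fell. Cdk1, the kinase of mitosis and the partner of cyclin B, had 3.47, 3.73 and 3.04 CPM in LPS cells, against 35.2, 15.1 and 20.7 CPM in untreated cells (log2 fold change -2.79, SE 0.40, adjusted p = 0.00214). Cdk2, the partner of cyclins E and A, had a smaller fold change, with 64.7, 52.6 and 60.4 CPM in LPS cells, against 86.9, 77.0 and 96.2 CPM in untreated cells (log2 fold change -0.55, SE 0.12, adjusted p = 0.0113). Neither gene's groups overlapped. Cdk4 and Cdk6, the kinases of G1, had log2 fold changes of -0.40 and -0.49 (adjusted p = 0.0711 and 0.475). Of the 2 inhibitors, Cdkn1b, p27, which holds cells out of the cycle, rose to 350.5, 271 and 336 CPM in LPS cells, against 113, 207 and 154 CPM in untreated cells (log2 fold change 1.02, SE 0.22, adjusted p = 0.0102). Every LPS library was above every untreated one. Cdkn1a, p21, a target of p53, was at 99.1, 90.2 and 90.7 CPM in LPS cells, against 70.7, 101 and 73.0 CPM in untreated cells, which overlap (log2 fold change 0.19, SE 0.15, adjusted p = 0.328).

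Of the 4 transcription factors 3 fell. E2f8, an atypical E2F that represses and is itself made in S phase, had 3.83, 3.35 and 3.21 CPM in LPS cells, against 47.6, 17.02 and 31.8 CPM in untreated cells (log2 fold change -3.21, SE 0.36, adjusted p = 0.000961). E2f2, an activating E2F, had 21.1, 22.0 and 16.2 CPM in LPS cells, against 82.1, 33.9 and 71.0 CPM in untreated cells (log2 fold change -1.66, SE 0.32, adjusted p = 0.00627). Foxm1, an activator of mitosis genes, had 8.23, 9.02 and 6.17 CPM in LPS cells, against 39.2, 15.2 and 28.2 CPM in untreated cells (log2 fold change -1.82, SE 0.36, adjusted p = 0.00779). For each of the 3, all LPS libraries lay below all untreated ones. E2f1 was at 7.41, 6.64 and 7.83 CPM in LPS cells, against 16.7, 9.04 and 8.54 CPM in untreated cells, and missed the threshold (log2 fold change -0.65, SE 0.26, adjusted p = 0.0868).

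The genes that load and fire replication origins did not move together. Of 11, Cdc45 and Cdc6 were called lower, a share near the 17.6% of all genes called lower. The median log2 fold change was -0.11, and the range was -1.46 to 0.33. Cdc45, a subunit of the active helicase, had 7.28, 7.23 and 6.86 CPM in LPS cells, against 25.8, 14.1 and 18.9 CPM in untreated cells (log2 fold change -1.46, SE 0.32, adjusted p = 0.0108). Its groups did not overlap, and its exons share bases with those of Ufd1. Cdc6, a loader of the Mcm ring, had 2.47, 2.72 and 3.54 CPM in LPS cells, against 12.3, 7.30 and 3.65 CPM in untreated cells (log2 fold change -1.41, SE 0.44, adjusted p = 0.036). Untreated replicate 3 was close to the LPS libraries for Cdc6, and the call was lost in 6 of the 16 alternative analyses that tested it. Cdt1, the other loader, was at 51.8, 43.5 and 50.7 CPM in LPS cells, against 56.3, 51.3 and 49.6 CPM in untreated cells (log2 fold change -0.11, SE 0.10, adjusted p = 0.319). Gmnn, geminin, which blocks Cdt1, and Gins2, of the helicase, had log2 fold changes of -0.89 and 0.19 and overlapping groups.

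None of Mcm2 to Mcm7 was called by edgeR in LPS against untreated cells, and 1 of the 6, Mcm3, had an unadjusted p under 0.05. DESeq2 called 0 of the 6, and limma on log2 FPKM called Mcm7 higher. Mcm7 was at 89.7, 78.3 and 80.1 CPM in LPS cells, against 79.1, 65.1 and 52.9 CPM in untreated cells (log2 fold change 0.33, SE 0.15, adjusted p = 0.115). It shares exonic bases with Cops6 and Ap4m1. Mcm6 was at 103, 82.9 and 65.7 CPM in LPS cells, against 70.5, 79.3 and 51.8 CPM in untreated cells (log2 fold change 0.32, SE 0.22, adjusted p = 0.294). The groups overlapped for both genes. The log2 fold change was -0.64 for Mcm5, -0.54 for Mcm3, 0.01 for Mcm4 and 0.26 for Mcm2. Without untreated replicate 3, 2 of the 6, Mcm3 and Mcm5, were called lower, and without untreated replicate 1, Mcm7 was called higher. The summed level of the 14 mitosis genes was 119, 136 and 114 CPM in the LPS libraries, against 924, 383 and 654 CPM in the untreated ones. The sum over Mcm2 to Mcm7 was 398, 340 and 321 CPM in LPS, against 446, 342 and 257 CPM in untreated libraries. The ratio of these sums, taken on CPM and so not per length, was 0.299, 0.402 and 0.355 in LPS cells, against 2.07, 1.12 and 2.55 in untreated cells.

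**Figure D2:**
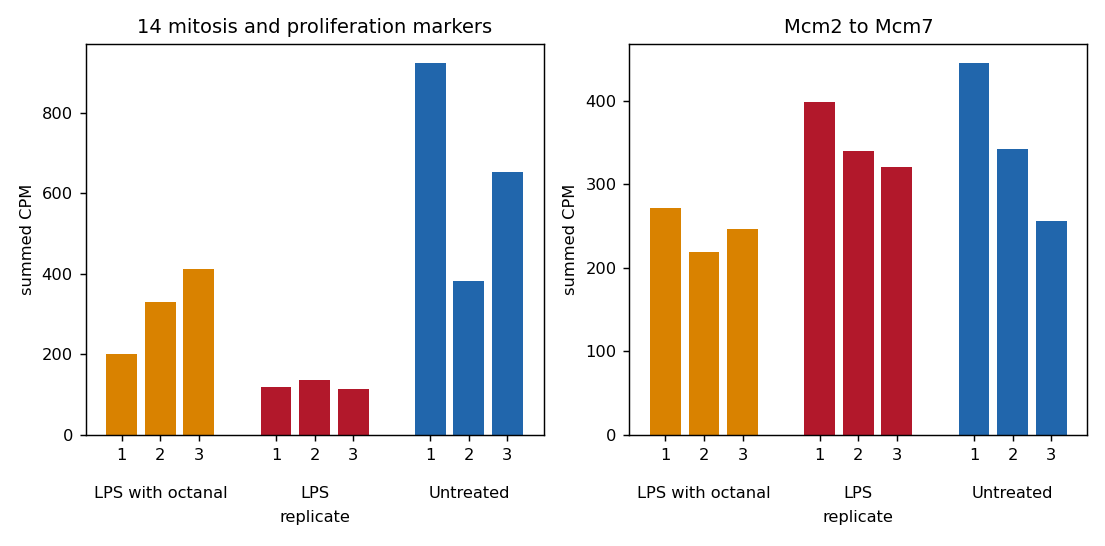
Summed CPM of the 14 mitosis and proliferation genes (left) and of Mcm2 to Mcm7 (right) in each of the 9 libraries; a bar is 1 library and both axes start at 0. The LPS bars are the lowest on the left, at 114 to 136 CPM, while on the right they span 321 to 398 CPM, within the untreated range of 257 to 446 CPM.

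The DNA around the start sites of these genes was read for 3 short motifs that the cell cycle literature ties to timing. They are CCAAT, bound by NF-Y; the cell cycle genes homology region (CHR), TTTGAA, bound by MuvB; and an E2F site, TTTNGCGC. The RefSeq windows (GRCm38.p6, 250 bases before to 50 after the start) covered 39 of the 50 genes, and each motif was searched on both strands, with overlapping matches counted one by one. Of 27025 genes with a window, 41.1% held CCAAT, 20.2% the CHR letters, 7.97% both and 1.57% the E2F letters. Of the 11 mitosis genes with a window, 10 held CCAAT, 8 held CHR, those 8 held both, and 0 held the E2F letters. Of the 5 Mcm genes with a window, 5 held CCAAT, 1 held CHR and 4 held the E2F letters. A match describes letters and is not evidence that a factor binds there. To let the 2 kinds of window be compared, the 160 bases before the start are shown 5′ to 3′ for 3 mitosis genes, for Cdk1 and for 2 Mcm genes, with matches to the 3 motifs on either strand in capitals. They lie at chr11:99024190-99024349 (- strand) for Top2a, chr19:37376222-37376381 (+) for Kif11, chr4:118437344-118437503 (-) for Cdc20, chr10:69352913-69353072 (-) for Cdk1, chr8:75109349-75109508 (+) for Mcm5 and chr1:128359706-128359865 (-) for Mcm6.
Top2a: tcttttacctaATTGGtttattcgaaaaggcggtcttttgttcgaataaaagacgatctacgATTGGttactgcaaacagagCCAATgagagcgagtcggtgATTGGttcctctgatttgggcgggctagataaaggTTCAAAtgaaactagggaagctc
Kif11: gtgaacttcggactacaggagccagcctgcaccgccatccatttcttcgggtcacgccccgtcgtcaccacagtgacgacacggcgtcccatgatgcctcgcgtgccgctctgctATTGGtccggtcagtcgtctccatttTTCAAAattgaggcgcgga
Cdc20: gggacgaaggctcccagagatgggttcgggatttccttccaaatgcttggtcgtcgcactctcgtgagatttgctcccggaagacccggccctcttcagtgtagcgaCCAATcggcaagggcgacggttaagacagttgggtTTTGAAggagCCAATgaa
Cdk1: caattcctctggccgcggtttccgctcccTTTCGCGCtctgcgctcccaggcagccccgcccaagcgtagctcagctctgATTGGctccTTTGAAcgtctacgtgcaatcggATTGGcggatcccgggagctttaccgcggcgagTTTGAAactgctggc
Mcm5: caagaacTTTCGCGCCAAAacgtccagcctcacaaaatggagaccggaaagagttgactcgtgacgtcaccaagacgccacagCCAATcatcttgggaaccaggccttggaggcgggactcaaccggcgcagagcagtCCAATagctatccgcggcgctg
Mcm6: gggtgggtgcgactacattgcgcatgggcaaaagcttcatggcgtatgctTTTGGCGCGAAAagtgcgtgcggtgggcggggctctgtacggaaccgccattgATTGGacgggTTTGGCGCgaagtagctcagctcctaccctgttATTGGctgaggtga
The Top2a stretch holds 4 CCAAT matches and 1 CHR, the Kif11 stretch 1 of each, and the Cdc20 stretch 2 CCAAT and 1 CHR. In Cdk1 there are 2 CCAAT, 2 CHR and 1 E2F match. Mcm5 and Mcm6 hold 2 CCAAT each, no CHR, and 2 and 3 E2F matches, some of which overlap on opposite strands. Top2a, Kif11, Cdc20 and Cdk1 were called lower in LPS cells, and Mcm5 and Mcm6 were not called. Windows not shown went otherwise. Those of Ccnb1, Bub1, Cenpe, Rrm1, Rrm2 and Cdk2 held CCAAT without CHR, and these genes were called lower too. The Mcm2 window held CHR, and Mcm2 was not called. A link between motifs and calls was not tested.

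In DNA synthesis and nucleotide supply 3 of 7 genes fell, at a median log2 fold change of -0.68 over the 7. Rrm2, the S-phase subunit of ribonucleotide reductase, which makes deoxynucleotides, had 5.66, 5.48 and 4.45 CPM in LPS cells, against 46.2, 15.4 and 24.8 CPM in untreated cells (log2 fold change -2.47, SE 0.43, adjusted p = 0.00433). Rrm1, the large subunit, had 38.7, 35.7 and 33.9 CPM in LPS cells, against 94.7, 57.2 and 58.1 CPM in untreated cells (log2 fold change -0.96, SE 0.20, adjusted p = 0.00934). Tyms, thymidylate synthase, had 3.65, 2.72 and 3.07 CPM in LPS cells, against 8.98, 4.75 and 4.85 CPM in untreated cells (log2 fold change -0.98, SE 0.29, adjusted p = 0.0319). The groups did not overlap for any of the 3, but the call of Tyms was lost in 7 of 18 alternative analyses, and Tyms and Pcna have annotated pseudogene copies. Pcna, the sliding clamp of DNA polymerases, was at 158, 133 and 150.0 CPM in LPS cells, against 179, 149 and 130 CPM in untreated cells, which overlap (log2 fold change -0.05, SE 0.13, adjusted p = 0.699). The thymidine kinase gene Tk1, the polymerase alpha gene Pola1 and the primase gene Prim1 had log2 fold changes of -0.68, -0.48 and 0.15 and were not called.

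**Figure D3:**
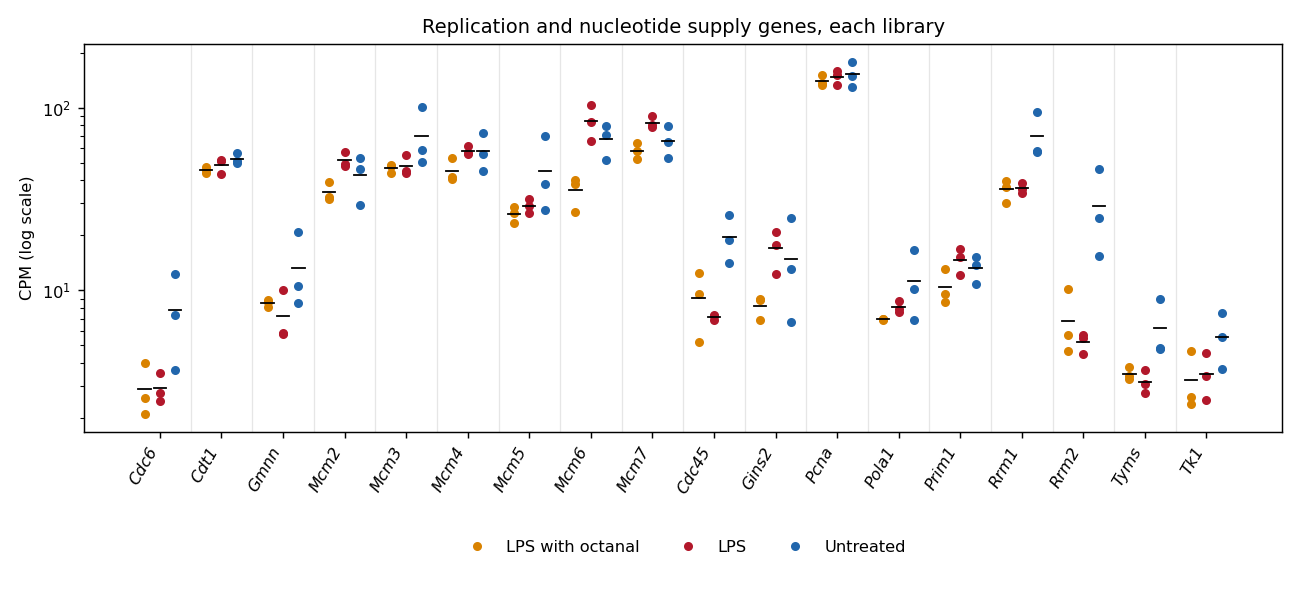
CPM (log scale) of the 18 genes of origin licensing, firing, DNA synthesis and nucleotide supply in each library; points are libraries and short bars are group means. Rrm2 sits at 4.45 to 5.66 CPM in LPS and 15.4 to 46.2 CPM in untreated libraries, while Pcna, at 130 to 179 CPM over all 9 libraries, overlaps between the groups.

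Other genes of the same pathways were counted from lists of their own, which were also chosen with earlier results of these data known. Of 43 further mitosis genes 38 fell and 1 rose in LPS against untreated cells, at a median log2 fold change of -2.07. Aspm, a spindle pole protein, averaged 2.63 CPM in LPS cells, against 30.1 CPM in untreated cells (log2 fold change -3.51, SE 0.42, adjusted p = 0.00115). Hmmr and Ube2c had log2 fold changes of -3.84 and -3.10. The exception, Smc4, a condensin subunit named after its value was seen, averaged 341 CPM in LPS cells, against 177 CPM in untreated cells (log2 fold change 0.94, adjusted p = 0.00307). Of 35 further replication factors 6 fell and 2 rose, at a median of -0.34. Those shares are near the 17.6% of all genes called lower and below the 15.2% called higher. Rfc2, of the clamp loader, had a log2 fold change of -1.11, Clspn, claspin, of the replication checkpoint, -3.07, and Ticrr, an origin firing factor, -3.03. The 2 that rose, Rpa1 (0.93) and Rpa2 (0.52), code for subunits of the single-strand binding protein RPA and were named after their values were seen. Of 29 other cell cycle regulators 12 fell and 5 rose. Those that fell included the CDK inhibitor Cdkn2c (-2.69) and the E2F partner Tfdp1 (-1.44). The 5 that rose were named after their values were seen. They were another CDK inhibitor, Cdkn2b (1.17), another E2F partner, Tfdp2 (1.24), and Cdc25b (1.24), Rbl2 (0.68) and Rbl1 (0.47). Of 15 genes of p53 and its targets 8 rose and 1 fell. Trp53 itself averaged 108 CPM in LPS cells, against 72.2 CPM in untreated cells (log2 fold change 0.58, adjusted p = 0.00452).

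Markers of several cell types moved together with the mitosis genes, and their part in these results was not tested. In LPS against untreated cells, 8 of 10 classical monocyte markers fell and 1 rose, with summed levels of 2433 to 3497 CPM in LPS and 7695 to 17457 CPM in untreated libraries. Ly6c2, which defines classical monocytes, averaged 2.95 CPM in LPS cells, against 139.8 CPM in untreated cells, and Ccr2 averaged 1.48 CPM in LPS cells, against 14.6 CPM in untreated cells. Csf1r, the receptor of the monocyte and macrophage lineage, was not called and averaged 231 CPM in LPS cells, against 402 CPM in untreated cells. Of 13 macrophage markers 8 fell (754 to 1156 CPM in LPS, against 4290 to 7753 CPM in untreated libraries). Of 12 neutrophil markers 11 fell (1894 to 2346 CPM in LPS, against 13992 to 27235 CPM in untreated libraries). Of 6 tested markers of neutrophil precursors, which divide, 5 fell. Among them Mpo averaged 0.721 CPM in LPS cells, against 40.0 CPM in untreated cells, and Ms4a3 was at 0 in all LPS libraries. The sum of that list, 288 to 549 CPM in LPS and 361 to 834 CPM in untreated libraries, overlapped. In the other direction, 9 of 9 T cell markers rose (2006 to 2682 CPM in LPS, against 615 to 1446 CPM in untreated libraries), and 3 of 8 NK cell markers rose. Of 8 B cell markers 1, Fcer2a, named after its value was seen, was called higher, and the other 7 had negative log2 fold changes that were not called. None of 11 erythroid precursor markers and none of 6 megakaryocyte markers was called by edgeR, with 0 and 1 at an unadjusted p under 0.05. Of 6 plasma cell markers 3 fell, of 5 tested eosinophil markers 4 fell with Epx at 0 in all LPS libraries, and of 8 stromal and endothelial markers 2 fell and 1 rose.

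**Figure D4:**
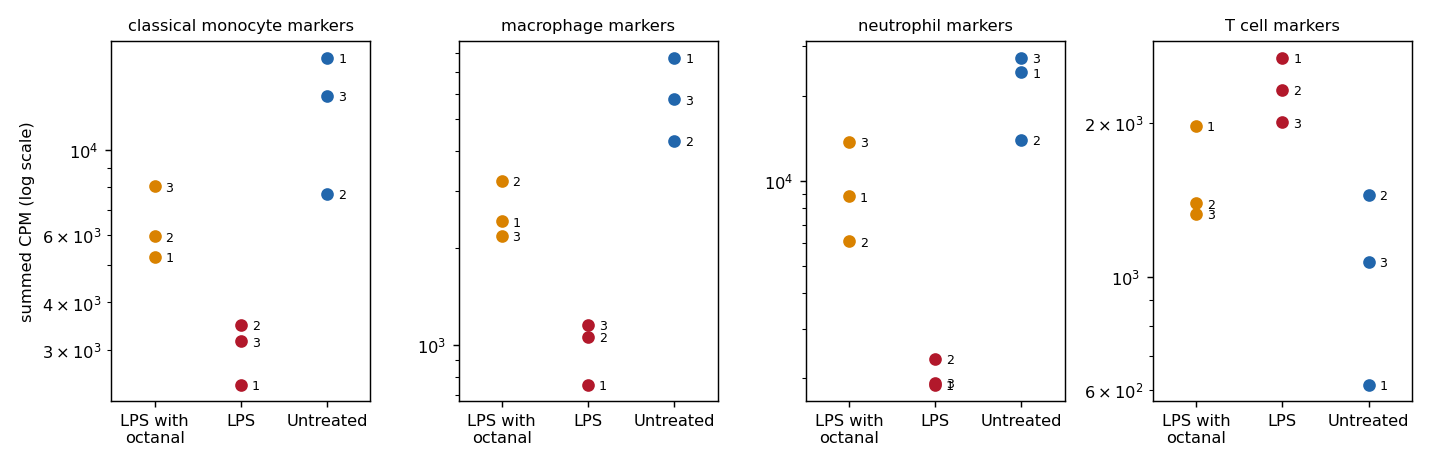
Summed CPM (log scale) of marker lists of 4 cell types in each library; points are libraries, numbered by replicate. Neutrophil markers sum to 6107 to 13728 CPM in LPS with octanal, 1894 to 2346 CPM in LPS and 13992 to 27235 CPM in untreated libraries, and T cell markers are highest in LPS, at 2006 to 2682 CPM.

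The comparison of LPS with octanal and LPS cells asks how cells given octanal after LPS differed from LPS cells. Any difference in time in culture, or in LPS dose or hours, cannot be told apart from octanal. It uses the same LPS libraries as the comparison above. Mitosis genes had higher and Mcm genes lower levels in the octanal libraries, but edgeR called 0 of the 50 genes, as it called 0% of all genes tested. At an unadjusted p under 0.05, 18 of the 50 were higher and 6 lower, where 13.6% of all genes were higher and 8.69% lower. The groups did not overlap for 18 genes that were higher and 8 that were lower with octanal, beside 18.3% and 19.9% of all genes. The share of the set without overlap was thus close to that of all genes on the lower side and above it on the higher side. DESeq2 called 16 of the 50 higher and 2 lower (9.89% and 2.24% of its genes), and edgeR on the 6 libraries of this comparison called 8 higher and 5 lower (6.35% and 2.92%). Without octanal replicate 1 edgeR called 7 of the 50, and without untreated replicate 2 it called 6. The median log2 fold change was 0.20 for the 50 and -0.05 for all genes tested.

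All 14 mitosis genes had positive log2 fold changes in this comparison, at a median of 1.25, and 13 of them had an unadjusted p under 0.05. For 12 the octanal libraries all lay above the LPS libraries, with Bub1 and Birc5 the exceptions. Of the 14, edgeR on all 9 libraries called 0. DESeq2 called 11 higher, and edgeR on the 6 libraries called 4 higher, beside 9.89% and 6.35% of all genes in those analyses. Cenpf had 4.26, 4.54 and 11.5 CPM in LPS with octanal, against 1.52, 1.19 and 0.719 CPM in LPS libraries (log2 fold change 2.56, SE 0.51, adjusted p = 0.0578). Mki67 had 90.8, 199 and 177 CPM in LPS with octanal, against 48.2, 61.8 and 59.5 CPM in LPS libraries (log2 fold change 1.46, SE 0.35, adjusted p = 0.0739). Top2a had 27.2, 33.3 and 58.1 CPM in LPS with octanal, against 13.99, 17.6 and 9.71 CPM in LPS libraries (log2 fold change 1.52, SE 0.40, adjusted p = 0.0866). Octanal replicate 3 was the highest for Cenpf and Top2a but not for Mki67. The mitosis sum was 200.01, 329 and 412 CPM in LPS with octanal, against 119, 136 and 114 CPM in LPS libraries.

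The cyclins and the CDK of mitosis went the same way. Ccnb1 had 10.04, 18.6 and 27.5 CPM in LPS with octanal, against 6.74, 5.92 and 5.34 CPM in LPS libraries (log2 fold change 1.64, SE 0.37, adjusted p = 0.0681). Ccna2 had 8.43, 12.3 and 23.5 CPM in LPS with octanal, against 5.07, 4.92 and 3.51 CPM in LPS libraries (log2 fold change 1.71, SE 0.44, adjusted p = 0.0815). Cdk1 had 5.93, 9.88 and 15.2 CPM in LPS with octanal, against 3.47, 3.73 and 3.04 CPM in LPS libraries (log2 fold change 1.60, SE 0.39, adjusted p = 0.0747). In each of the 3 the octanal libraries differed by more among themselves than the LPS libraries did, and the lowest of them still lay above the highest LPS library. E2f8 had 9.64, 8.003 and 12.6 CPM in LPS with octanal, against 3.83, 3.35 and 3.21 CPM in LPS libraries (log2 fold change 1.54, SE 0.34, adjusted p = 0.0649). E2f2 and Foxm1 had log2 fold changes of -0.10 and 0.41 with overlapping groups. Cdkn1b was at 239.9, 181 and 187 CPM in LPS with octanal, against 350.5, 271 and 336 CPM in LPS libraries, without overlap (log2 fold change -0.65, SE 0.22, adjusted p = 0.134).

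The Mcm2 to Mcm7 genes had negative log2 fold changes, all 6 of them, at a median of -0.43, and 3 had an unadjusted p under 0.05. Mcm6 had the lowest p of the whole set, with 38.4, 26.8 and 40.4 CPM in LPS with octanal, against 103, 82.9 and 65.7 CPM in LPS libraries (log2 fold change -1.26, SE 0.23, adjusted p = 0.0565). Mcm7 had 64.2, 52.5 and 57.9 CPM in LPS with octanal, against 89.7, 78.3 and 80.1 CPM in LPS libraries (log2 fold change -0.51, SE 0.15, adjusted p = 0.108). Mcm2 had 39.4, 32.4 and 31.6 CPM in LPS with octanal, against 57.2, 49.1 and 48.0 CPM in LPS libraries (log2 fold change -0.58, SE 0.20, adjusted p = 0.15). The octanal libraries were below all LPS libraries for Mcm2, Mcm4, Mcm6 and Mcm7, and overlapped them for Mcm3 and Mcm5. DESeq2 called Mcm6 and Mcm7 lower, and edgeR on the 6 libraries also called Mcm2. Gins2 was at 6.85, 8.89 and 8.95 CPM in LPS with octanal, against 17.8, 12.2 and 20.97 CPM in LPS libraries (log2 fold change -1.05, SE 0.42, adjusted p = 0.191). Gins2 shares exonic bases with Gse1. The ratio of the mitosis sum to the Mcm sum on CPM was 0.737, 1.4998 and 1.68 in LPS with octanal, against 0.299, 0.402 and 0.355 in LPS libraries.

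Of the 43 further mitosis genes 40 had positive log2 fold changes with octanal against LPS, at a median of 0.71, and edgeR called 0. An unadjusted p under 0.05 was found for 21 of the 43, where 13.6% of all genes were higher and 8.69% lower. Among those 21, Kif22 (log2 fold change -0.62), with the lowest p of the list, and Smc4 (-0.60) were lower. The 35 further replication factors had a median of -0.10, with 0 called by edgeR and 6 at an unadjusted p under 0.05. Marker lists moved here too, though edgeR called no marker of any list, and their part was not tested. All 12 neutrophil markers had positive log2 fold changes, 10 of them at an unadjusted p under 0.05. They summed to 6107 to 13728 CPM in LPS with octanal, against 1894 to 2346 CPM in LPS libraries. All 6 tested neutrophil precursor markers were positive too, 3 of them at an unadjusted p under 0.05. That list summed to 975 to 1560 CPM in LPS with octanal, 288 to 549 CPM in LPS and 361 to 834 CPM in untreated libraries. Macrophage markers summed to 2180 to 3223 CPM in LPS with octanal, against 754 to 1156 CPM in LPS libraries. Only 5 of the 13 macrophage markers had positive log2 fold changes. Monocyte markers summed to 5258 to 8052 CPM in LPS with octanal, against 2433 to 3497 CPM in LPS libraries, and T cell markers to 1329 to 1972 CPM, against 2006 to 2682 CPM. Ly6c2 averaged 0.875 CPM in LPS with octanal and 2.95 CPM in LPS cells, so this defining monocyte marker did not share the direction of the sum.

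**Figure D5:**
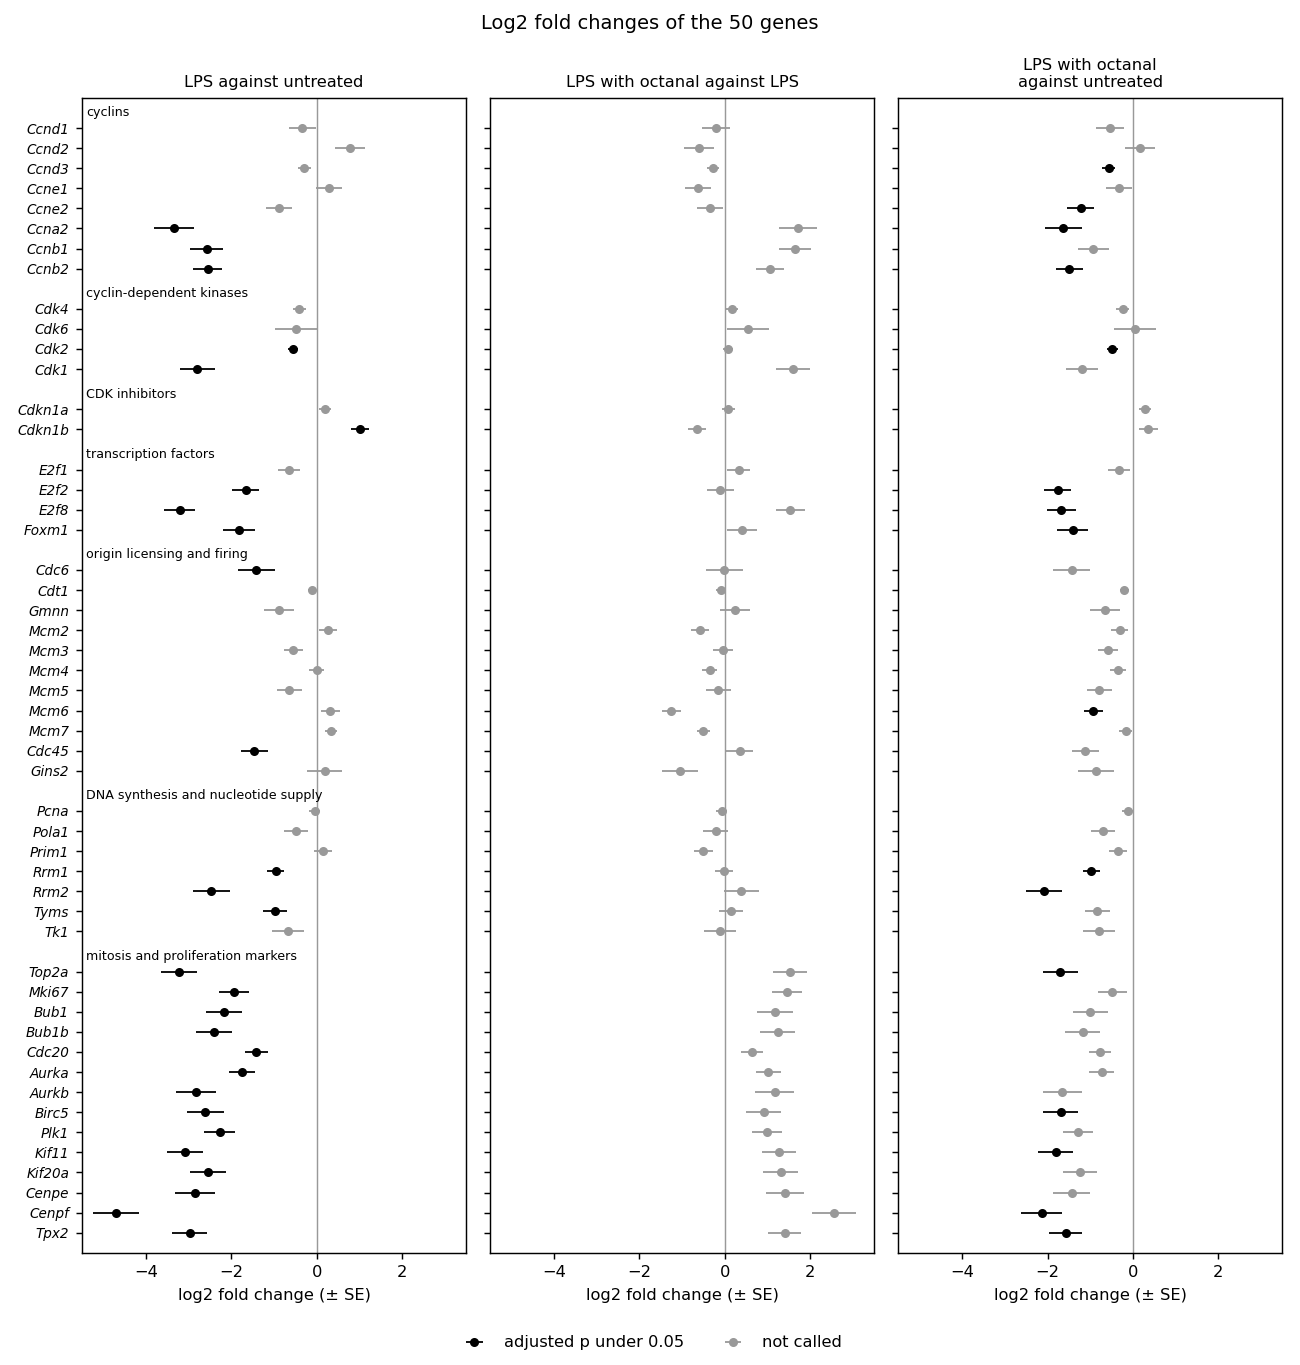
Log2 fold change of each of the 50 genes, grouped by role, in LPS against untreated cells (left), LPS with octanal against LPS (middle) and LPS with octanal against untreated cells (right), with bars for the SE of the edgeR fit and black for called genes. Mitosis genes run from -4.70 to -1.42 in LPS against untreated cells and from 0.64 to 2.56 in LPS with octanal against LPS, and the panels share libraries.

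LPS with octanal against untreated cells shares its libraries with the other contrasts. It asks how cells given LPS and then octanal differed from untreated cells. In it LPS, octanal and any difference in time in culture or solvent cannot be told apart. Of the 50 genes 16 were lower and 0 higher, where 6.03% of all genes tested were called lower and 2.63% higher. The median log2 fold change was -0.85, beside -0.01 for all genes tested. Every octanal library was below every untreated one for 21 of the 50, beside 2524 of all 15447 genes tested. Every octanal library was above for 0 of the 50, beside 2080 of all genes tested. Of the mitosis genes 5 of 14 fell. Cenpf had 4.26, 4.54 and 11.5 CPM in LPS with octanal, against 41.99, 16.3 and 31.2 CPM in untreated cells (log2 fold change -2.14, SE 0.48, adjusted p = 0.0308). Top2a in LPS with octanal stood at 30.8% of its untreated mean (log2 fold change -1.70, SE 0.40, adjusted p = 0.0357). Both genes had every octanal library below every untreated one. Kif11 had 8.26, 8.57 and 17.97 CPM in LPS with octanal (log2 fold change -1.81, SE 0.40, adjusted p = 0.0293), Tpx2 had 9.93, 8.62 and 20.7 CPM (log2 fold change -1.57, SE 0.39, adjusted p = 0.0397), and Birc5 had 5.87, 3.71 and 9.35 CPM (log2 fold change -1.69, SE 0.41, adjusted p = 0.0391). These 3 also lay below the untreated values given above, without overlap. Mki67 was not called, with 90.8, 199 and 177 CPM in LPS with octanal overlapping 299.7, 129 and 225 CPM in untreated cells (log2 fold change -0.48, SE 0.34, adjusted p = 0.382).

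The rest of the 16 were genes of replication, transcription factors, cyclins and Cdk2. Rrm2 had 5.70, 4.65 and 10.1 CPM in LPS with octanal, against 46.2, 15.4 and 24.8 CPM in untreated cells (log2 fold change -2.08, SE 0.42, adjusted p = 0.0211). E2f2 had 17.5, 14.6 and 23.1 CPM in LPS with octanal, against 82.1, 33.9 and 71.0 CPM in untreated cells (log2 fold change -1.76, SE 0.32, adjusted p = 0.0153). For E2f8 the log2 fold change was -1.68 (SE 0.34, adjusted p = 0.021). The octanal values of these 3 genes were all below the untreated ones. Foxm1 had 7.71, 8.94 and 14.4 CPM in LPS with octanal, against 39.2, 15.2 and 28.2 CPM in untreated cells (log2 fold change -1.41, SE 0.36, adjusted p = 0.0448). Rrm1 had 36.98, 30.2 and 39.7 CPM in LPS with octanal, against 94.7, 57.2 and 58.1 CPM in untreated cells (log2 fold change -0.98, SE 0.20, adjusted p = 0.0231). For both genes the octanal libraries all lay below the untreated ones. Mcm6 was the 1 Mcm gene called, with 38.4, 26.8 and 40.4 CPM in LPS with octanal, against 70.5, 79.3 and 51.8 CPM in untreated cells (log2 fold change -0.93, SE 0.23, adjusted p = 0.038). Its groups did not overlap.

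Of the cyclins 4 fell, and of the CDKs Cdk2. For Ccna2 the log2 fold change was -1.64 (SE 0.43, adjusted p = 0.0492). Ccnb2 had 7.94, 9.88 and 16.7 CPM in LPS with octanal, against 41.8, 20.9 and 34.6 CPM in untreated cells (log2 fold change -1.495, SE 0.32, adjusted p = 0.026). Ccne2, a cyclin of the step from G1 to S, had 3.14, 2.12 and 3.56 CPM in LPS with octanal, against 9.71, 5.4999 and 5.42 CPM in untreated cells (log2 fold change -1.23, SE 0.31, adjusted p = 0.0427). All octanal libraries were below all untreated ones for these cyclins. Ccnd3, the D-type cyclin with the highest FPKM of the set here, had 143, 115 and 124 CPM in LPS with octanal, against 194, 158 and 216 CPM in untreated cells (log2 fold change -0.57, SE 0.15, adjusted p = 0.0457). Cdk2 had 61.95, 56.4 and 67.7 CPM in LPS with octanal, against 86.9, 76.97 and 96.2 CPM in untreated cells (log2 fold change -0.48, SE 0.12, adjusted p = 0.0429). These groups were apart as well. Ccnd3 shares exonic bases with Bysl, Ccne2 with Ints8 and Cdk2 with Pmel, so reads may be shared within each pair. The count of 16 depended on single libraries: none of the 50 was called without octanal replicate 2, 1 without octanal replicate 1, 2 without untreated replicate 1, 23 lower and 1 higher (Cdkn1a) without untreated replicate 2, and 9 without untreated replicate 3. Without octanal replicate 3, 14 were called lower. Leaving out LPS replicate 1, 2 or 3, which enter through the shared estimate of spread, left 8, 6 and 8. None was called by edgeR on the 6 libraries of this contrast alone, where 1.72% of all genes were called lower, and DESeq2 called 26 lower, beside 9.75% of its genes. At an unadjusted p under 0.05, 32 of the 50 were lower, beside 16.4% of all genes. Of the 43 further mitosis genes 14 fell and 0 rose. Beside these, 9 of 13 macrophage markers fell and 1 rose, and 5 of 12 neutrophil and 5 of 10 monocyte markers fell. Of the 6 tested neutrophil precursor markers 2 fell and 1 rose. All 9 T cell markers had positive log2 fold changes, and edgeR called 0 of them, with 3 at an unadjusted p under 0.05. The part of these markers was not tested.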

How the data were processed

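RNA was extracted with TRIzol and mRNA libraries were prepared from 9 samples, per the labels' protocols. The authors deposited whole-number read counts per gene, without normalization, and FPKM values (scaled by gene length and depth), per the file headers. Reads were placed on GRCm38 according to the submitters' processing notes, while the aligner, the counter and any use of strand were not given in the sources used here. Of 26770 rows, 4735 were unannotated and 22021 matched GENCODE M21, which gave the exon overlaps.

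Tests on counts used edgeR 4.0.16 (R 4.3.3), with TMM scaling (factors 0.923 to 1.07), filterByExpr with the groups given, and quasi-likelihood tests from 1 fit of all 9 libraries without a replicate term, with adjusted p over 15447 genes. Alternatives were DESeq2 1.42.0, limma 3.58.1 on log2(FPKM + 1) or log2(FPKM + 0.1), and leaving out each library. Promoter windows came from RefSeq (GRCm38.p6). The fit was tested on simulated counts.

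The members and lists were chosen with earlier results of these data known. Full values are given for called members or, where a comparison called none, the 8 of lowest p; the others are given by values, counts and ranges, and up to 3 genes of lowest p are named per pathway list. No batch is named in the labels, and whether replicates were separate animals or cultures is not stated there. The p-values therefore reflect the spread of these samples alone, which may be technical. Between replicates, chi-square per degree of freedom was 46.9 to 157.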

Additional observations from a re-analysis of the deposited data

How the results depend on the processing

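In LPS against untreated cells no alternative moved the count of called members by more than 1.5 times: edgeR called 27 lower, 25 to 32 were lower over 18 alternatives, and the 14 mitosis genes were called lower in each. In LPS with octanal against LPS, where edgeR called 0 of the 50, 2 were called without the filter on low counts, 18 by DESeq2, 1 by limma on log2(FPKM + 0.1), 13 with the 6 libraries compared, 1 without unannotated genes, and 0 to 7 with a library left out (7 without octanal replicate 1, 6 without untreated replicate 2). In LPS with octanal against untreated cells (16 called), 26 were called by DESeq2, 0 with the 6 libraries compared, and 0 to 24 with a library left out. The cause of these shifts was not tested. Replicate numbers were not established to pair samples: same-numbered libraries correlated at -0.12 to 0.27, and a fit with the replicate block called 8 in LPS with octanal against untreated cells, 0 in LPS with octanal against LPS, and 26 lower and 1 higher in LPS against untreated cells. On log2(FPKM + 1), where 48 of the 50 passed the filter, the median of all genes in LPS against untreated cells was 0.11, and Mcm7 was called higher. On that scale 26.4% of all genes were called higher and 17.3% lower, beside 15.2% and 17.6% on counts.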
